A study of Mus musculus with 42 samples.

Results

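Lipid droplet coat proteins and the enzymes that empty the droplet were followed in K14-Rac1V12 mice on 3 diets, in their ear skin, their aorta and their liver. The set holds 10 genes, picked by symbol and all present among the 48709 genes of the count table: the perilipins Plin1, Plin2, Plin3, Plin4 and Plin5, the CIDE proteins Cidec and Cideb, and the lipases Pnpla2, Lipe and Mgll. In aorta 9 of them had enough counts to be tested, in liver 6 and in skin 1.

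All mice carried the K14-Rac1V12 transgene, in which an active Rac1 is driven by the keratin 14 promoter of basal keratinocytes, and no mice without it were among the samples. Every mouse first ate the omega-3-deficient diet for 2 weeks and was assigned to a diet at an age of 14 weeks for a further 12 weeks. The EPA group received a diet rich in eicosapentaenoic acid and the DHA group a diet rich in docosahexaenoic acid, each given as 3 g per kg of feed, scaled to the equivalent of 4 g per day for a person. For the DHA diet the protocol gives the dose with the name of EPA, which was taken to mean DHA. The OD group stayed on the omega-3-deficient diet. Each tissue had 5 EPA, 5 DHA and 4 OD libraries, 42 in all. The labels give 5 mice per diet and do not number the libraries, so the numbers used here only name them. Each library of a group was taken to come from its own mouse, an assumption that rests only on these numbers of mice.

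Neutral lipid is stored in cells as droplets, each a core of triglyceride and sterol esters under a single layer of phospholipid. Perilipins coat this surface and set how far lipases reach the core, and CIDE proteins pass lipid between touching droplets so that these grow. Triglyceride is then taken apart in steps: Pnpla2 (adipose triglyceride lipase) removes the first fatty acid, Lipe (hormone-sensitive lipase) the next and Mgll (monoacylglycerol lipase) the last. Fat cells of white and brown adipose tissue hold most of the body's droplets, and hepatocytes form droplets when fatty acids arrive faster than they are burned or exported.

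Libraries were made from 3′ ends with molecular tags. Depth was lowest in skin, with totals of 40157 to 220488 counts, while aortas had 179795 to 717508 and livers 343824 to 768532. A gene with 3 counts would therefore stand at 13.6 to 74.7 CPM (counts per 1e6 counts) in skin, at 4.18 to 16.7 CPM in aorta and at 3.90 to 8.73 CPM in liver. The 10 genes together made up 0.0414% ± 0.0128 of a skin library, 0.187% ± 0.0400 of an aorta library and 0.0544% ± 0.00996 of a liver library (SD, n = 14 each). All 5 keratinocyte, 5 smooth muscle and 7 hepatocyte markers had counts in each tissue, so only the sums of these lists set the tissues apart. The keratinocyte list summed to 23387 to 37830 CPM in skin, against at most 209 in aorta and 84.6 in liver. The smooth muscle list summed to 7471 to 18294 CPM in aorta, against at most 423 in skin and 60.1 in liver. The hepatocyte list summed to 65667 to 95024 CPM in liver, against at most 2515 in skin and 811 in aorta. Aorta also held counts of 10 of 10 genes listed as white and 8 of 8 listed as brown adipocyte markers, although the labels say that perivascular fat was removed. Skin held as many, and liver held 9 of 10 white and 8 of 8 brown ones. The brown adipocyte list summed to 100 to 508 CPM in skin, 1827 to 7499 CPM in aorta and 12.6 to 108 CPM in liver. The white adipocyte list summed to 249 to 2414 CPM in skin, 4102 to 9389 CPM in aorta and 418 to 2429 CPM in liver, where Lep was at 0 and Adipoq, the adipocyte hormone adiponectin, had at most 1 count per library. Car3 made up most of the liver sum, with a median of 1967 CPM against a median of 2068 CPM for the whole list there. In aorta the largest were Fabp4 (median 4138 CPM) and Car3 (median 1889 CPM). Lep, also on the white list, had 12 counts over the 14 aortas. Whether white fat cells were present in aorta apart from brown ones was not tested. Alb, made by hepatocytes, had 44 to 99 counts per skin library and 69 to 204 per aorta library. Xist, which is transcribed from the inactive X chromosome of female cells, stood at 373 CPM or more in EPA 1, EPA 5 and DHA 1 of each tissue and at 41.2 CPM or less in all other libraries, all OD libraries among them. The sex of the mice is not given in the sources used here, and the part of these libraries is given below by fits without them.

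On GRCm38, Plin1 lies at chr7:79720218-79732903 on the minus strand, Plin2 at chr4:86648386-86670060 on the minus strand and Plin3 at chr17:56277476-56292873 on the minus strand. Plin4 (chr17:56100591-56109803) and Plin5 (chr17:56111601-56117596) are neighbours on the same strand of chromosome 17. Cidec lies at chr6:113424634-113435760 and Cideb at chr14:55754050-55758458, both on the minus strand. Pnpla2 (chr7:141455198-141460743) and Mgll (chr6:88724412-88828360) are on the plus strand, and Lipe (chr7:25379527-25398710) is on the minus strand. All 10 are annotated as protein-coding. On the opposite strand, exons of Nop9 overlap 1136 exonic bases of Cideb, an antisense clone overlaps 918 of Lipe and Gm26588 overlaps 167 of Mgll. How the counting treated strand is not given in the sources used here, so reads of these pairs may not be told apart; over all libraries Nop9 had 189 counts, against 1038 for Cideb, the clone had 31, against 464 for Lipe, and Gm26588 had 40, against 3822 for Mgll.

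Promoter windows are printed for the 5 genes that passed the test in DHA aortas below, a choice made by that threshold alone. Each window runs 5′ to 3′ from 250 bases before to 50 bases after an annotated RefSeq start on GRCm38.p6, and capitals mark any match on either strand to the motifs searched.
Plin1, chr7:79732727-79733026, minus strand: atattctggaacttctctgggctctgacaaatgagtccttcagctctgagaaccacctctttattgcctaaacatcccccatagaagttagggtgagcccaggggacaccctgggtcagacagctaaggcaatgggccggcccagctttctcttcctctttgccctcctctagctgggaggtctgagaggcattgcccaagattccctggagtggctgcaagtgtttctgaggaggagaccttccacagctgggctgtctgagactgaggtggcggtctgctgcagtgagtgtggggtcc
Plin2, chr4:86670010-86670309, minus strand: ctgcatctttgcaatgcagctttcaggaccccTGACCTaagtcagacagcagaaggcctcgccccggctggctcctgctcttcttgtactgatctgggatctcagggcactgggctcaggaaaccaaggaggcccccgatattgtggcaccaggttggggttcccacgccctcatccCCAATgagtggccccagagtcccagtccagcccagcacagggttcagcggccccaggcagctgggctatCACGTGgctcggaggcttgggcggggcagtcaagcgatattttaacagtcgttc
Pnpla2, chr7:141454938-141455237, plus strand: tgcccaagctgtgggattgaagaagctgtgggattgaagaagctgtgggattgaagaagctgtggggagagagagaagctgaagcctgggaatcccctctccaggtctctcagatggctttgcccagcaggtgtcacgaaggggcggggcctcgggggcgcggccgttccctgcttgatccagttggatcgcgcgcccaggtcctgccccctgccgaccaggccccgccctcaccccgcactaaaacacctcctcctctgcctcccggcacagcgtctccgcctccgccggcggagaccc
Lipe, chr7:25395938-25396237, minus strand: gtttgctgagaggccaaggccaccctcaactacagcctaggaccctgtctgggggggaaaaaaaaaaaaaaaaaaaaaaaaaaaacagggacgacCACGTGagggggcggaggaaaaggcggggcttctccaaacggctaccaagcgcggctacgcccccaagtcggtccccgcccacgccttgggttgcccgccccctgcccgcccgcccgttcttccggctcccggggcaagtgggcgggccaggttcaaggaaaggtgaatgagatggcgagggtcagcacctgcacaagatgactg
Mgll, chr6:88724162-88724461, plus strand: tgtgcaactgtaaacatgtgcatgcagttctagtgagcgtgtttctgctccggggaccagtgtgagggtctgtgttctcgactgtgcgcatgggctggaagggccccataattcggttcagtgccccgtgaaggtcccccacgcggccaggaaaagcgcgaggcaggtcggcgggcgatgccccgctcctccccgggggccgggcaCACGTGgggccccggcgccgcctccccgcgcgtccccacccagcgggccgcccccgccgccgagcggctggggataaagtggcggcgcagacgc

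The motifs searched on both strands were the nuclear receptor half-site AGGTCA, present in 16.3% of all 32851 promoter windows of this length, its direct repeat 1 base apart (0.0396%), the E-box CACGTG (7.15%), TATAAA (13.6%) and CCAAT (37.4%). The Plin2 window held a half-site at -218 on the minus strand, CCAAT at -73 and an E-box at -4, counted from the start. Lipe held an E-box at -155 and Mgll an E-box at -44, while the Plin1 and Pnpla2 windows held none of these letters. Of the other members, the windows of Plin3, Plin4 and Plin5 held CCAAT, those of Plin5 also the half-site and that of Cideb TATAAA. No window of any of the 10 genes held the direct repeat. Libraries from 3′ ends do not show which start was used, and Plin5, Cidec, Lipe and Mgll each have 2 annotated windows.

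The tissues differed in which of these genes they carried. Plin1, Plin4, Cidec, Lipe and Pnpla2 were many times higher in aorta than in liver, Cideb was far higher in liver, and Plin2, Plin3 and Plin5 were found in both at levels whose difference did not pass the test with TMM scaling. In skin all 10 genes were lower than in aorta in the fit scaled by TMM, while with total counts Plin3 and Cideb did not pass. Levels in this paragraph and the next 4 are CPM of all counts as mean ± SD over 14 libraries of a tissue with the diets pooled, log2 differences are from a fit of all 42 libraries scaled by TMM, and each gene is compared with itself across tissues.

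**Figure D1:**
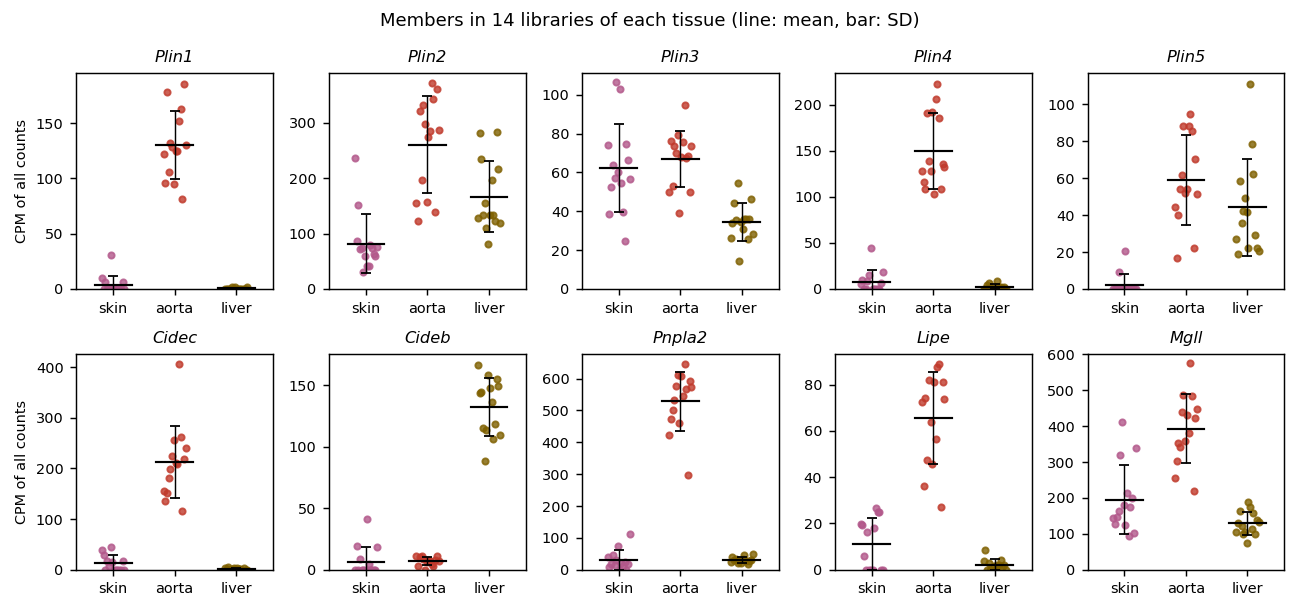
Level of each of the 10 genes in CPM of all counts (linear axis from 0) in skin, aorta and liver. Each point is a library (14 per tissue), the line is the mean and the bar the SD; Plin1, Plin4, Cidec and Lipe stand high in aorta, and Cideb stands high in liver.

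Among the perilipins, Plin1, the coat protein of adipocyte droplets that holds lipases back until it is phosphorylated, averaged 3.73 ± 8.32 CPM in skin, 130 ± 30.8 CPM in aorta and 0.426 ± 0.848 CPM in liver. The liver value rests on 3 counts in 14 libraries, against 864 counts in aorta, a pooled ratio of 317 with a 95% counting interval of 108 to 1542. Plin4, a coat protein of small new droplets in adipocytes, averaged 7.71 ± 12.4 CPM in skin, 150 ± 40.8 CPM in aorta and 2.24 ± 2.66 CPM in liver. No skin or liver library reached the lowest aorta library for either gene. Plin2, the coat protein found in most cell types and degraded when it is not on a droplet, averaged 82.0 ± 53.1 CPM in skin, 261 ± 88.2 CPM in aorta and 166 ± 64.5 CPM in liver. Plin3, which moves from the cytosol onto new droplets, averaged 62.3 ± 22.5 CPM in skin, 67.1 ± 14.5 CPM in aorta and 34.5 ± 9.81 CPM in liver. Plin5, which ties droplets to mitochondria in oxidative cells, averaged 2.12 ± 5.85 CPM in skin, 58.8 ± 24.3 CPM in aorta and 44.2 ± 26.3 CPM in liver. In skin Plin5 had 2 counts in all, so its ratio of skin to aorta was 0.0217 with a 95% counting interval of 0.00262 to 0.0790. Plin2, Plin3 and Plin5 overlapped between aorta and liver.

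The CIDE proteins went to opposite tissues. Cidec, which enlarges droplets of fat cells, averaged 12.4 ± 15.9 CPM in skin, 212 ± 71.2 CPM in aorta and 2.09 ± 1.80 CPM in liver. Cideb, which acts in hepatocytes on droplets and on the loading of lipoproteins, averaged 6.65 ± 12.1 CPM in skin, 7.16 ± 3.38 CPM in aorta and 132 ± 23.4 CPM in liver. The aorta and liver libraries did not overlap for either gene. Among the lipases, Pnpla2 averaged 30.4 ± 30.7 CPM in skin, 529 ± 92.2 CPM in aorta and 30.9 ± 9.86 CPM in liver. Lipe averaged 11.1 ± 11.1 CPM in skin, 65.6 ± 19.8 CPM in aorta and 2.09 ± 2.36 CPM in liver. Mgll averaged 195 ± 95.4 CPM in skin, 393 ± 96.2 CPM in aorta and 129 ± 32.9 CPM in liver. The lowest aorta library was above all liver libraries for Pnpla2, Lipe and Mgll, for Mgll at 221 CPM against at most 189 CPM in liver. With the TMM scaling of all 42 libraries in place of CPM of all counts, 10 of 14 aortas were above all livers for Mgll.

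In the fit of all libraries 6 of the 10 genes were higher in aorta than in liver (35.6% of the 9912 genes tested were) and 1 was lower (30.5%), with edgeR's quasi-likelihood test and Benjamini-Hochberg adjustment at 0.05. The higher ones, in log2, were Plin1 (6.89 ± 0.30, SE), Cidec (5.80 ± 0.27), Plin4 (5.28 ± 0.27), Lipe (4.05 ± 0.30), Pnpla2 (3.37 ± 0.14) and Mgll (0.89 ± 0.13), with adjusted p of 3.17e-08 or less. Cideb was lower by a log2 difference of -4.81 ± 0.18 (adjusted p = 5.29e-29). Plin2 (-0.12 ± 0.17), Plin3 (0.26 ± 0.14) and Plin5 (-0.26 ± 0.22) did not pass. Genes pass the filter of this fit through any tissue in which they are high, so these counts over 10 genes carry no weight beyond the single values, and a fitted difference against a tissue with a few counts is no bound.

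In skin against aorta 10 of 10 were lower (33.9% of genes) and 0 higher (28.9%), by log2 differences of -0.58 ± 0.17 for Plin3 to -5.68 ± 0.62 for Plin5. As above, the count over 10 genes carries no weight. Cideb had 7 counts in all skin libraries and 49 in all aortas, too few to be tested within either tissue. Its pooled ratio of skin to aorta was 0.621, with a counting interval of 0.237 to 1.38. For Plin3 the ratio was 0.916 (0.725 to 1.15), so neither interval excludes 1. The intervals of the other members lay below 1, but Plin5, Plin1 and Plin4 had only 2, 6 and 9 skin counts. In skin against liver 1 was higher (37.4%), Lipe at 1.24 ± 0.53 (adjusted p = 0.0321). That call rests on 18 counts in all skin libraries and 16 in all liver libraries. These were too few for Lipe to be tested within either tissue. Lower were 5 (33.9%): Cideb (-6.03 ± 0.29), Plin5 (-5.94 ± 0.60), Plin2 (-2.05 ± 0.22), Pnpla2 (-1.40 ± 0.25) and Mgll (-0.64 ± 0.15). Scaling decides the small differences: with total counts in place of TMM the median log2 difference over all genes was 0.81 in place of 0.12 for aorta minus liver, 0.42 in place of -0.05 for skin minus aorta and 1.31 in place of 0.13 for skin minus liver. Under that scaling Plin3 (0.97), Plin2 (0.59) and Plin5 (0.47) were also higher in aorta than in liver, Mgll (0.60) and Plin3 (0.88) were higher in skin than in liver, and Plin3 and Cideb in skin against aorta (-0.10 and -0.42) did not pass, nor did Pnpla2 in skin against liver (-0.21, adjusted p = 0.462). With thinned counts Pnpla2 there was at 0.80 (adjusted p = 0.296), and with the deposited normalised values Lipe in skin against liver was at 0.49 (adjusted p = 0.292). Lipe in skin against liver passed in 19 of 28 fits that left out a library, and Cideb in skin against aorta in 20 of 28.

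In aorta 5 of the 9 members tested were higher on DHA than on OD, as were 4.28% of the 6538 genes tested. These were Plin2, Mgll, Pnpla2, Plin1 and Lipe, by about 1.48-fold for Pnpla2 to 2.13-fold for Plin2, and no member was lower. The count was 1, Plin2, with total counts in place of TMM or without OD 4. On the EPA diet the same genes had changes of like size, but none passed the adjusted threshold. Values from here on are scaled CPM, that is CPM of the tested genes' counts with TMM scaling within the tissue, in the order of the library numbers. Both diets are set against the same 4 OD aortas, so their changes are not independent of each other. In whole tissue, more fat cells and more RNA per fat cell cannot be told apart.

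**Figure D2:**
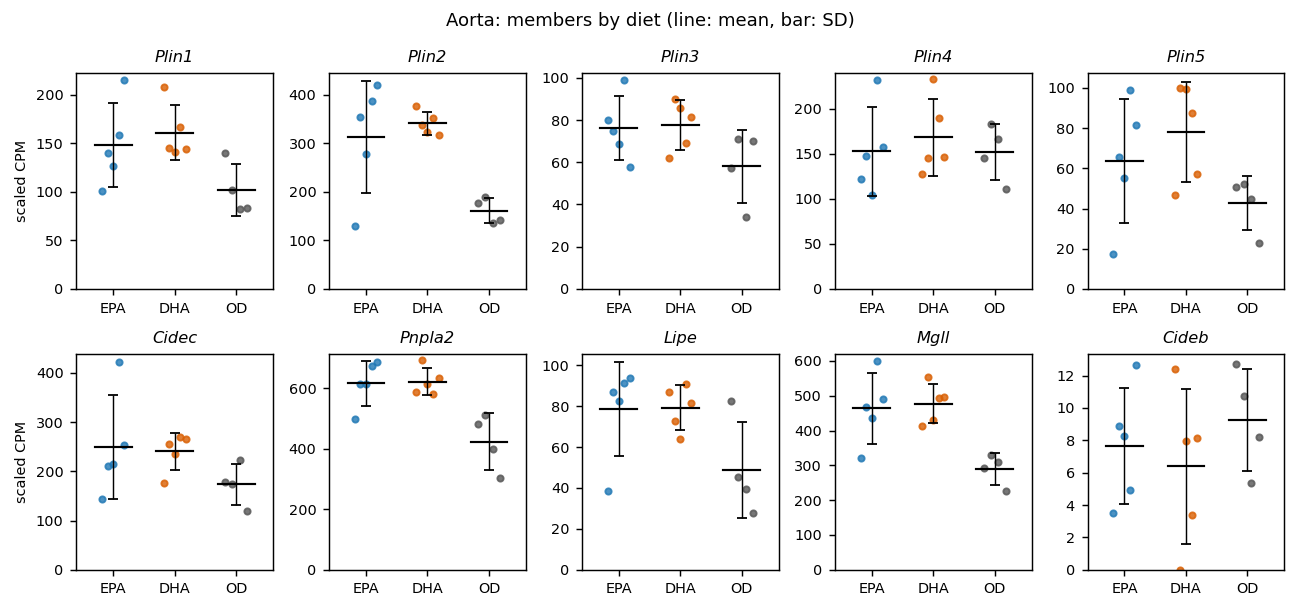
Scaled CPM (linear axis from 0) of the 9 tested genes and of Cideb, which had too few counts to be tested, in aortas on EPA (5), DHA (5) and OD (4). Points are libraries, lines means and bars SDs; all DHA points lie above all OD points for Plin1, Plin2, Pnpla2 and Mgll.

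Plin2 had 376, 338, 323, 351 and 318 scaled CPM in DHA aortas, against 178, 189, 136 and 142 in OD aortas. The lowest DHA aorta was above the highest OD aorta, and the log2 change was 1.09 ± 0.22 (SE; adjusted p = 0.00773). In EPA aortas Plin2 had 129, 354, 278, 388 and 419 scaled CPM, a log2 change of 0.99 ± 0.22 against OD (adjusted p = 0.0541). EPA 1, at 37 counts the lowest of the EPA aortas, lay below all OD aortas and the other 4 EPA aortas above them.

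Plin1 had 208, 145, 141, 166 and 144 scaled CPM in DHA aortas, against 140, 102, 82.5 and 83.4 in OD aortas. The groups did not overlap, by a narrow margin, since OD 1 with 22 counts came close to the DHA aortas; the log2 change was 0.73 ± 0.21 (adjusted p = 0.0402). In EPA aortas Plin1 had 101, 140, 126, 158 and 215 scaled CPM, and 3 of 5 were above all OD aortas (log2 change 0.64 ± 0.20, adjusted p = 0.128).

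The other 3 perilipins did not pass. Plin5 had 46.6, 100, 99.6, 87.4 and 57.1 scaled CPM in DHA aortas, against 50.8, 52.2, 44.9 and 22.9 in OD aortas, and 4 of 5 DHA aortas were above all OD aortas (log2 change 0.93 ± 0.32, adjusted p = 0.109). Its EPA aortas spread widely, at 17.4, 65.8, 55, 98.9 and 81.4 scaled CPM (0.67 ± 0.33, adjusted p = 0.404). These rest on 5 to 52 counts per library. Plin3 averaged 76.1 ± 15.2 scaled CPM on EPA and 77.6 ± 11.6 on DHA, against 58.1 ± 17.2 on OD, with log2 changes of 0.35 ± 0.22 on EPA (adjusted p = 0.551) and 0.39 ± 0.22 on DHA (adjusted p = 0.370). Plin4 was the member nearest to no change: it averaged 153 ± 49.2 scaled CPM on EPA and 169 ± 42.9 on DHA, against 152 ± 31.2 on OD. Its log2 change was 0.01 on EPA, with a 95% interval of -0.44 to 0.46, and 0.16 on DHA, with an interval of -0.28 to 0.61.

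Of the CIDE proteins, Cidec averaged 249 ± 105 scaled CPM on EPA and 241 ± 37.9 on DHA, against 173 ± 42.3 on OD. Its log2 changes of 0.54 ± 0.23 on EPA (adjusted p = 0.326) and 0.48 ± 0.23 on DHA (adjusted p = 0.283) did not pass. EPA 4, at 423 scaled CPM, was the highest of the EPA aortas. Cideb had 0 to 8 counts per aorta library and was not tested there.

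All 3 lipases were higher on DHA. Mgll had 413, 553, 430, 494 and 497 scaled CPM in DHA aortas, against 292, 329, 310 and 226 in OD aortas, with no overlap and a log2 change of 0.72 ± 0.17 (adjusted p = 0.0144). Pnpla2 had 588, 694, 616, 580 and 636 scaled CPM in DHA aortas, against 482, 511, 398 and 304 in OD aortas, again with no overlap (0.56 ± 0.15, adjusted p = 0.0364). Lipe had 87.0, 72.5, 63.8, 90.8 and 81.5 scaled CPM in DHA aortas, against 82.5, 45.5, 39.5 and 27.8 in OD aortas (0.88 ± 0.26, adjusted p = 0.0481). Here the groups overlapped through OD 1, a library with 13 counts of Lipe and the lowest total of all aortas; 2 of 5 DHA aortas were above it.

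On EPA the lipases had like values without passing. Mgll had 320, 468, 437, 601 and 492 scaled CPM in EPA aortas, against the OD values above, and 4 of 5 were higher than all OD aortas (0.69 ± 0.17, adjusted p = 0.0628). Pnpla2 had 498, 615, 616, 673 and 687 scaled CPM, with 4 of 5 above all OD aortas (0.56 ± 0.15, adjusted p = 0.0812). Lipe had 38.3, 87.1, 82.5, 91.5 and 94.0 scaled CPM, with EPA 1 apart from the others at 11 counts (0.91 ± 0.25, adjusted p = 0.0829).

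**Figure D3:**
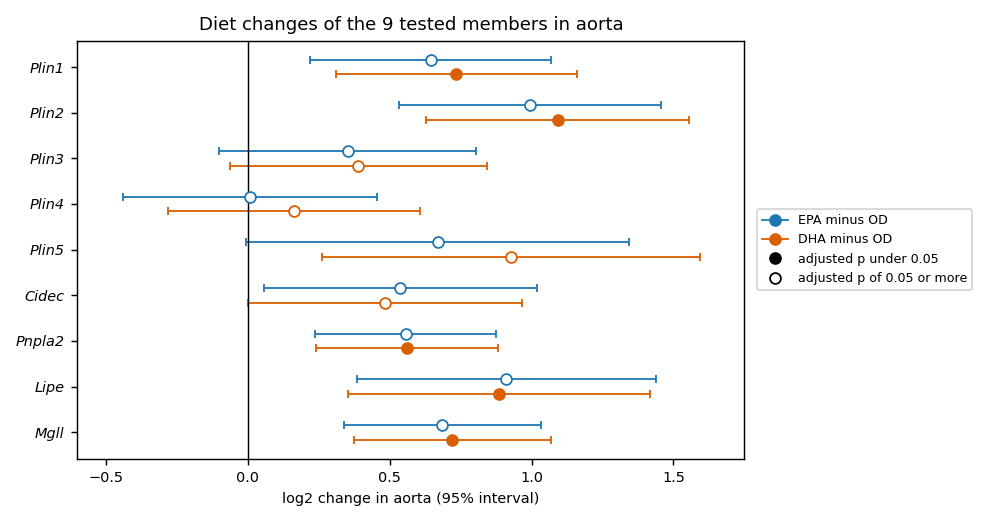
Log2 change in aorta with its 95% interval for the 9 tested genes, EPA minus OD above DHA minus OD in each pair. Filled points have an adjusted p under 0.05; the 5 filled ones are Plin1, Plin2, Pnpla2, Lipe and Mgll on DHA, and the EPA points lie close to the DHA points.

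Counted over the set, 5 of 9 members were higher on DHA, against 4.28% of genes, and 0 were lower (0.597%). The DHA libraries lay above all OD libraries for 4 of 9 members, against 5.38% of genes. On EPA 0 of 9 passed (0.275% of genes did); at an unadjusted p under 0.05 it was 6 of 9 (12.6%), all 6 of them higher (8.18%), and for 0 of 9 did the EPA libraries all lie above the OD libraries (1.90%). DESeq2 called 4 of the 9 on EPA, where its calls over all genes were 186 in place of 18. The median log2 change of the 9 was 0.64 on EPA and 0.72 on DHA, where the medians over all genes were -0.02 and -0.05. All 9 changes were positive on each diet as fitted, but those of 4 members not called did not keep that sign under other processing. Plin4 turned negative on both diets with total counts, with the white adipocyte covariate and relative to Adipoq, and on EPA also with voom, the deposited normalised values, thinned counts and without OD 1, OD 4 or EPA 4. Cidec turned negative on both diets with the covariate (-0.09 on EPA), and Plin3 lay just below 0 with thinned counts on DHA and relative to Adipoq on both diets, as did Plin5 relative to Adipoq on EPA. EPA against DHA gave 0 of 9 calls (0% of genes) and 0 of 9 at an unadjusted p under 0.05 (3.46%). The differences between EPA and DHA ran from -0.26 for Plin5 (95% interval -0.85 to 0.33) to 0.05 for Cidec (-0.39 to 0.49); for Plin2 the interval was -0.51 to 0.31 and for Pnpla2 -0.30 to 0.29. These intervals do not show that EPA and DHA act alike.

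The calls on DHA differ in how much they rest on single libraries. Plin2 passed in 9 of 9 fits that each left out 1 DHA or OD aorta and Mgll in 8 of 9, whereas Pnpla2 passed in 3, Lipe in 2 and Plin1 in 1. Without OD 4 the count of members called was 1 in place of 5, without OD 3 or without DHA 1, 2 or 5 it was 2, and without OD 2, DHA 3 or DHA 4 it was 3. For EPA the count was 5 without EPA 1, 3 without OD 1 and 1 without OD 2, in place of 0, and 3 without the 2 EPA aortas and 1 DHA aorta high in Xist; EPA 1, which stood apart for Plin2 and Lipe, is one of these. With total counts in place of TMM, Plin2 alone passed on DHA; there the median over all genes was -0.25, and -0.17 on EPA.

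**Figure D4:**
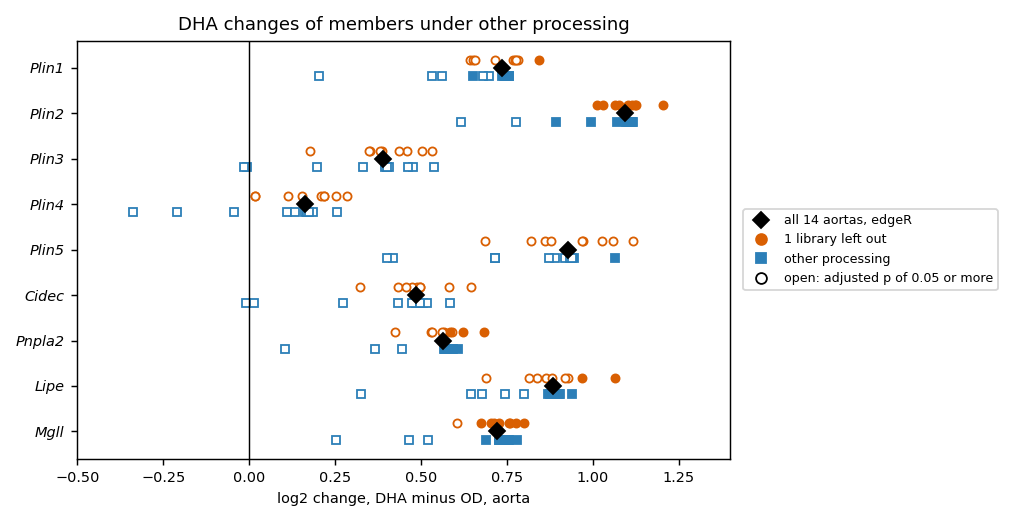
Log2 change on DHA against OD in aorta for each of the 9 tested genes: all libraries (diamond), fits that leave out 1 library (circles) and other processing, among it values relative to Adipoq (squares). Filled marks passed at an adjusted p under 0.05; Plin2 stayed filled in 9 of 9 fits with a library left out, and the marks of Plin3, Plin4 and Cidec reach 0 or below under other processing.

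Some markers of other cells also differed between the diets in aorta. The brown adipocyte list summed to 3828 to 6405 CPM in EPA aortas and 6346 to 7499 CPM in DHA aortas, against 1827 to 4432 CPM in OD aortas; 6 of its 8 tested genes were higher on DHA and 1 on EPA. Ucp1, the uncoupling protein of brown fat, changed by 0.96 ± 0.26 on EPA (adjusted p = 0.0724) and rose by 1.25 ± 0.26 on DHA (adjusted p = 0.00803). The white adipocyte list summed to 4102 to 9389 CPM on EPA and 5839 to 8397 CPM on DHA, against 4105 to 7043 CPM on OD, with 0 of 9 tested genes higher on EPA and 1 on DHA. Of these 9, 8 had positive changes on EPA and 6 on DHA, and the rest did not. Adipoq had log2 changes of 0.51 ± 0.20 on EPA (adjusted p = 0.239) and 0.49 ± 0.20 on DHA (adjusted p = 0.176). The smooth muscle list summed to 7959 to 12667 CPM on EPA and 7471 to 10268 CPM on DHA, against 10718 to 18294 CPM on OD. The EPA and OD sums overlapped, and of its 5 tested genes 0 were lower on EPA and 1 on DHA. The skeletal muscle list summed to 710 CPM in 1 EPA aorta and to 398 and 415 CPM in 2 DHA aortas, against at most 93.2 CPM in OD aortas. Mitochondrial transcripts took 23.4% ± 1.99 of counts on EPA and 25.2% ± 3.41 on DHA, against 18.4% ± 7.14 on OD. Their part in the members' changes was not tested.

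No member passed with the white adipocyte list as a covariate or relative to Adipoq. The brown adipocyte list was not used as a covariate. The white list was not shown to follow white fat cells alone, and its genes went in mixed directions on DHA. With the mean of the white adipocyte list as a covariate 0 of 9 members passed on DHA, and over all genes the calls were 19 in place of 319. The changes stayed positive for the genes called on DHA, and that of Plin1 was nearly as large as without the covariate. Without it they were 1.09 for Plin2, 0.73 for Plin1, 0.72 for Mgll, 0.88 for Lipe and 0.56 for Pnpla2. Plin2 changed by 0.78 ± 0.24 (adjusted p = 0.141), Plin1 by 0.68 ± 0.24 (adjusted p = 0.223), Mgll by 0.47 ± 0.17 (adjusted p = 0.223), Lipe by 0.65 ± 0.29 (adjusted p = 0.389) and Pnpla2 by 0.44 ± 0.18 (adjusted p = 0.282). As a measure free of scaling, added after the data were seen, each member was divided by Adipoq of the same library, which had 46 to 239 counts. The log2 ratio of Plin2 to Adipoq was -0.04 ± 0.24 on DHA, against -0.65 ± 0.40 on OD (SD, n = 5 and 4), a difference of 0.62 with a two-sided exact permutation p of 0.0159, adjusted over the 18 ratios to 0.286. On EPA that ratio was -0.23 ± 0.23, a difference of 0.42 (exact permutation p = 0.0794, adjusted 0.587). Plin4 over Adipoq differed by -0.46 on EPA and -0.34 on DHA, Cidec by 0.02 on EPA and 0.01 on DHA, and the other 6 members by between -0.02 and 0.40. None of the 18 passed, and the smallest p that 126 regroupings allow is 0.00794.

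Other genes of droplet building and breakdown, from a list of 26, were in part higher in DHA aortas. Of the 22 tested, 6 were higher on DHA (4.28% of genes) and 0 lower (0.597%), 1 was higher on EPA (0.229%), and 16 did not pass on DHA. Ddhd2, a phospholipase and triglyceride hydrolase, rose by 1.10 ± 0.17 on EPA (adjusted p = 0.00668) and by 1.06 ± 0.17 on DHA (adjusted p = 0.00219). The other 5 that rose on DHA were Gpd1, which makes the glycerol backbone (1.32 ± 0.25), the acyltransferases of the last step of triglyceride synthesis Dgat1 (0.95 ± 0.25) and Dgat2 (0.75 ± 0.16), the brown adipocyte CIDE protein Cidea (0.76 ± 0.20) and the carboxylesterase Ces1d (0.65 ± 0.19). Among the regulators of Pnpla2, its activator Abhd5 had changes of 0.59 ± 0.22 on EPA (adjusted p = 0.217) and 0.32 ± 0.23 on DHA (adjusted p = 0.507), and its inhibitor G0s2 had 0.67 ± 0.22 on EPA (adjusted p = 0.151) and 0.53 ± 0.22 on DHA (adjusted p = 0.211). The median change of the 22 was 0.59 on EPA and 0.57 on DHA. Cidea is also in the brown adipocyte list.

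Across the 14 aortas most members varied together, but Plin3 did so little once the diet means were taken out. Pearson's r of log2 scaled CPM over the 36 pairs of the 9 tested members had a median of 0.69 (0.18 to 0.93), and 0.58 (-0.21 to 0.91) after the diet means were taken out. The closest pair was Mgll and Pnpla2 (0.93) and the loosest Plin3 and Plin4 (0.18). With the diet means taken out, Plin3 ran from -0.21 with Plin1 to 0.16 with Plin4. The median r over pairs of all genes was not computed, so it is not shown that the set stands out. Outside the set, the gene most like Plin2 among the 6329 compared was Atp5o (r = 0.96), a subunit of the mitochondrial ATP synthase, that for Plin1 was Elovl6 (0.93), a fatty acid elongase, that for Pnpla2 was the mitochondrial protein gene Chchd10 (0.96), that for Mgll was Scp2 (0.96), a sterol carrier, that for Lipe was Gbe1 (0.95), the glycogen branching enzyme, that for Plin5 was Lpin1 (0.93), a phosphatidate phosphatase, and that for Cidec was Ces1d (0.90). Plin3 and Plin4 had looser partners, Rb1 (0.78) and Sar1b (0.84). These correlations are descriptions over 14 libraries that share diet, depth and cell makeup. In the 14 livers the median r over the 15 pairs of 6 tested members was 0.01 (-0.18 to 0.38).

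In liver no member passed on either diet. The 6 tested were Plin2, Plin3, Plin5, Cideb, Pnpla2 and Mgll, and the share of genes called was 0% on EPA and 0% on DHA, with 0% between them. At an unadjusted p under 0.05 it was 1 of 6 on EPA (6.70% of the 5018 genes tested) and 2 of 6 on DHA (6.16%), and 0 of 6 between EPA and DHA (3.67%). DESeq2 called 0 in each of the 3 comparisons.

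Cideb had 135, 92.1, 153, 119 and 148 scaled CPM in EPA livers and 141, 119, 140, 123 and 110 in DHA livers, against 183, 135, 185 and 162 in OD livers. Both omega-3 groups overlapped OD through OD 2, with log2 changes of -0.36 ± 0.16 on EPA (unadjusted p = 0.0347, adjusted 0.722) and -0.39 ± 0.16 on DHA (unadjusted p = 0.0249, adjusted 0.744). Mgll had 121, 103, 197, 128 and 138 scaled CPM in EPA livers and 159, 110, 179, 166 and 135 in DHA livers, against 114, 143, 87.3 and 105 in OD livers. Its log2 change was 0.28 ± 0.20 on EPA (adjusted p = 0.889) and 0.42 ± 0.20 on DHA (unadjusted p = 0.0495, adjusted 0.806), and 3 of 5 DHA livers were above all OD livers.

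Plin2 averaged 185 ± 52.2 scaled CPM in EPA livers and 159 ± 52.5 in DHA livers, against 172 ± 86.4 in OD livers, where OD 4 alone had 296. Its log2 changes were 0.10 on EPA (95% interval -0.52 to 0.72) and -0.12 on DHA (-0.74 to 0.50). Plin5 averaged 38.8 ± 29.0 on EPA and 61.8 ± 33.8 on DHA, against 37.9 ± 9.31 on OD (0.04 ± 0.46 on EPA and 0.72 ± 0.44 on DHA). Of the DHA livers 4 of 5 had more Plin5 than all OD livers, and the fifth, at 20.4, had less than all of them. Plin3 averaged 41.4 ± 10.6 on EPA and 30.2 ± 10.6 on DHA, against 37.2 ± 6.02 on OD, and Pnpla2 averaged 31.03 ± 6.36 on EPA and 35.2 ± 14.3 on DHA, against 30.1 ± 6.81 on OD; neither passed. The other 4 members were near 0 in liver: of 7300924 counts over 14 libraries, Plin1 had 3, Plin4 16, Cidec 15 and Lipe 16. Of the companion list 0 of 17 tested genes passed in liver on either diet.

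**Figure D5:**
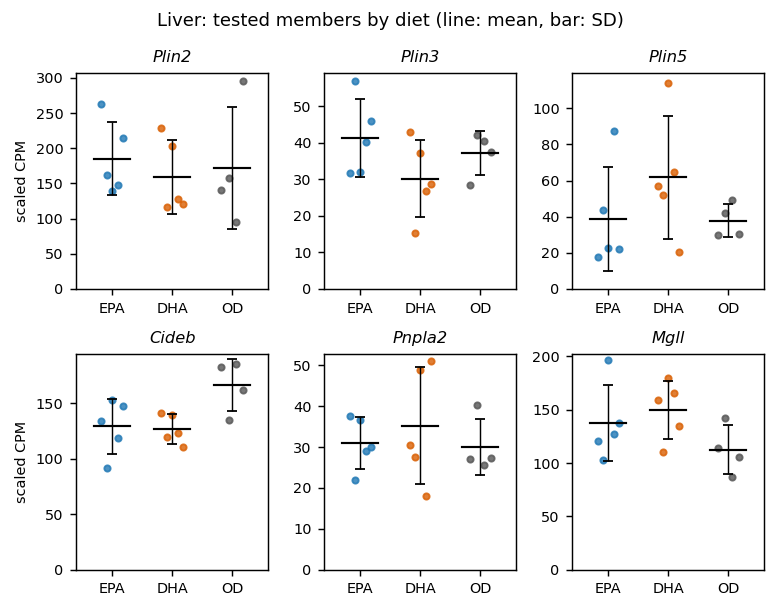
Scaled CPM (linear axis from 0) of the 6 tested genes in livers on EPA (5), DHA (5) and OD (4). Points are libraries, lines means and bars SDs; the diets overlap for every gene, and Cideb averages 129 on EPA and 127 on DHA, against 166 on OD.

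Whether a diet change differs between aorta and liver was tested in the fit of all libraries, with tissues as independent. The high Xist at the same 3 numbers in each tissue would also be seen if same-numbered libraries came from one mouse; the labels do not tie libraries of different tissues to mice, so this was not modelled here or in the tissue comparisons. No member passed for EPA (0.0404% of genes did) or for DHA (0.0202%). For Plin2 the change in aorta minus that in liver was 0.96 ± 0.43 on EPA (unadjusted p = 0.0297, adjusted 0.760) and 1.29 ± 0.43 on DHA (unadjusted p = 0.00434, adjusted 0.362). For Plin3 on DHA the difference was 0.72 ± 0.34 (unadjusted p = 0.0412, adjusted 0.629). At an unadjusted p under 0.05 this was 1 of 10 members on EPA (5.94% of genes) and 2 of 10 on DHA (7.57%), and DESeq2 called 0 in both. That members passed in aorta and not in liver is therefore not shown to be a difference between these tissues.

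Skin was too shallow for most of the set. Mgll, with 281 counts, was the only member tested, and 0 of 1 passed in each comparison, where 0% of genes passed on EPA, 0% on DHA and 0% between them. The shares at an unadjusted p under 0.05 were 4.17% on EPA, 2.16% on DHA and 2.16% between them, and Mgll was in none of these. DESeq2 also called 0. Mgll had 183, 434, 173, 133 and 142 scaled CPM in EPA skin and 209, 574, 290, 246 and 496 in DHA skin, against 204, 220, 256 and 264 in OD skin. The groups overlapped, with log2 changes of -0.08 on EPA (95% interval -0.84 to 0.69) and 0.57 on DHA (-0.17 to 1.32), and -0.65 between EPA and DHA (-1.37 to 0.06).

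Of the untested members in skin, Plin2 had 145 counts, Plin3 94, Pnpla2 42, Cidec 21, Lipe 18, Plin4 9, Cideb 7, Plin1 6 and Plin5 2, out of 1524533. Plin2 summed to 69.9 CPM in EPA skin (36 counts, exact 95% Poisson interval 49.0 to 96.8) and 79.97 CPM in DHA skin (44 counts, 58.1 to 107), against 142 CPM in OD skin (65 counts, 109 to 180). OD 1 alone gave 48 of those 65 OD counts, so the sum shows that library more than the diet, and the intervals cover counting error only. Of the companion list 0 of 4 tested genes passed in skin.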

How the data were processed

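The authors deposited whole-number counts per gene, headed total counts per the file headers, for 48709 genes in 42 libraries, and these deposited counts were used for every test. The authors also deposited normalised values headed CPM, whose columns sum to between 513430 and 1767790; they are treated as a score on the authors' own scale and used in an alternative only. Per the submitters' processing notes the build was GRCm38.p6 and edgeR was used, with no version; of the aligner, the counter, the strand setting and the handling of molecular tags, nothing is given in the sources used here. Per the labels' protocols, 10 ng of RNA went into a 3′ kit. If tags were not collapsed, counts hold copies from PCR and counting intervals are too narrow.

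With edgeR 4.0.16 under R 4.3.3, the 3 diets of a tissue were fitted together after filterByExpr (minimum count 10) and scaling by TMM. The test was the quasi-likelihood F test, adjusted by Benjamini-Hochberg for each contrast over all genes tested (2133 in skin, 6538 in aorta, 5018 in liver), with a threshold of 0.05. Tissues and the difference of diet changes were tested in a fit of all 9 groups (9912 genes). A standard error was obtained as the log2 change over the root of its F statistic, and correlations used a prior count of 2. The fit was tested on simulated data.

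Alternatives were DESeq2 1.42.0 and its size factors, total counts alone, no filter, voom of limma 3.58.1 with quality weights, limma on log2 of the deposited score plus 2, thinning to the lowest total, only the libraries of the diets compared, leaving out the libraries with over 200 CPM of Xist (2 EPA and 1 DHA per tissue), a white adipocyte covariate, and leaving out each library. The members, the companion, marker and motif lists and the rule for genes named were chosen with earlier results of these data known. Named are all members, companions past the threshold, the regulators Abhd5 and G0s2, the gene most like each member, and markers beside the results they move with; Ucp1, Adipoq and the companions' regulators were picked for the text after their values were seen. Coordinates are from GENCODE M21, which holds 48349 of the identifiers, 46199 with the same symbol; promoters are RefSeq's. Duplicates were looked for among 78 pairs within groups, and the lowest ratio of chi-square to its degrees of freedom was 1.46, so none was merged.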

Additional observations from a re-analysis of the deposited data

Results flagged for a closer look

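In 48 groups of 4 or 5 libraries of a tested member, 3 libraries stood apart from the rest of their group; chance flags about 1 in 20 groups. Pnpla2 in liver OD 2 had 40.2 scaled CPM (22 counts), against 25.6 to 27.4 in the other OD livers. Lipe in aorta EPA 1 had 38.3 scaled CPM (11 counts), against 82.5 to 94.0 in the other EPA aortas. Mgll in skin EPA 2 had 434 scaled CPM (39 counts), against 133 to 183 in the other EPA skins. No member's diet change differed between aorta and liver past the threshold.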

How the results depend on the processing

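On EPA in aorta 0 members were called; DESeq2 called 4, voom 4, the fit with no filter 5 and the fit without the libraries high in Xist 3, while over all genes the calls were 186, 192, 257 and 100 in that order, in place of 18. Leaving out a library gave 0 to 5. On DHA in aorta 5 were called; total counts alone gave 1, the deposited normalised values 3, thinned counts 2, the white adipocyte covariate 0 and values relative to Adipoq 0, and over all genes 205, 289, 191 and 19 for the first 4 of these, in place of 319; leaving out a library gave 1 to 5. The other alternatives gave 5 or 6 on DHA. Thinned to the lowest skin total, 4 members could be tested between tissues, with 3 calls for aorta minus liver, 4 for skin minus aorta and 1 for skin minus liver. Without a filter 1 member passed for the difference of the DHA change between aorta and liver. Values that turned round were, with total counts alone, Plin2 (0.59) and Plin5 (0.47) in aorta minus liver and Mgll (0.60) and Plin3 (0.88) in skin minus liver, and, with thinned counts, Pnpla2 (0.80) and Mgll (0.17) in skin minus liver. Thinning leaves fewer counts and fewer genes tested; the cause of the other shifts was not tested. In liver and skin, and for EPA against DHA in aorta, all alternatives that were run gave 0 calls. Among members not called, the sign changed in 46 of 427 values in aorta, 23 of 330 in liver and 4 of 55 in skin. Most of those in aorta were in EPA against DHA, where the fitted changes were small. Against OD, Plin4 had the most, 8 on EPA and 2 on DHA. No paired analysis was made, because the labels number no replicates and tie no library to a mouse. The numbers used here follow accession order, in which the diets run alike in each tissue, and Xist was high at the same 3 numbers in each tissue. Same-numbered libraries may come from one mouse, which was not tested. Depth limits skin most: 9 of 10 members had too few counts to be tested there.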
